A study of Mus musculus with 4 samples.

Results

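Genes of ciliary transport, of the BBSome and of human ciliopathies were followed in the mouse retina with and without the transcription factor gene Fezf2. The members are 34 genes chosen by name: subunits of the intraflagellar transport trains and their kinesin motors, the BBSome with its chaperonin-like helpers, small GTPases of the ARL family, transition zone proteins, tubby-like proteins and the Usher cadherins. All 34 of the 22558 gene symbols in the deposited tables were found, each at a single locus and with no failed value. The choice was made by function and used no measured value, although earlier results of these data were known.

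Whole retinas were sequenced on postnatal days 7 (P7) and 14 (P14) from mice labelled Fezf2KO (KO) and from littermates labelled wildtype (control), all on the C57/BL/6J background, with 1 library per genotype and age and 4 in all. The sources used here do not give which allele was deleted and in which cells, or how many animals went into a library. Levels are in FPKM, fragments scaled to transcript length and to the mapped fragments of the library, so that genes of different length can be compared. Each level comes with a lower and an upper bound that cover counting error only.

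Photoreceptors carry their light-sensing membranes on a modified primary cilium, the outer segment, which in the mouse grows out during the second postnatal week. Everything the outer segment holds passes through the connecting cilium, the counterpart of the transition zone of other cilia. Intraflagellar transport (IFT) trains move along it, built from the IFT-B complex, which kinesin carries outward, and the IFT-A complex, which serves the way back and the entry of membrane proteins. The BBSome rides on these trains and carries membrane proteins out of the cilium, and ARL GTPases and tubby-like proteins control the loading and unloading of cargo. Loss of many of these genes causes retinal degeneration in people, alone or in Bardet-Biedl, Joubert, nephronophthisis or Usher syndromes.

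The X-box, the binding motif of RFX transcription factors, is the element best known from promoters of ciliary genes, so it was searched for in the members first. RefSeq windows of 300 bases (250 before and 50 after a start site, build GRCm38.p6) were at hand for 31 of the 34 members. A loose form of the motif, GTNNCC and GNAAC parted by 3 free bases, was looked for on both strands. It was found in 7 of these 31 members, against 3.15% of 9322 genes at 1 FPKM or more in any library that had a window, and 2.49% of all 27025 symbols in the table. The shorter GTTGCC, which can lie inside the longer form, was found in 13 of 31 members and in 15.0% of the same 9322 genes. The matches are shown in capitals with 8 bases on each side, read in the direction of the gene, because the 7 genes belong to different complexes and did not move the same way with age.
Bbs7, chr3:36613489-36613518, minus strand: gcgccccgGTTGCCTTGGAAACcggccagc
Bbs4, chr9:59353464-59353493, minus strand: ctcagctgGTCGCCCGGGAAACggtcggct
Bbs1, chr19:4906605-4906634, minus strand: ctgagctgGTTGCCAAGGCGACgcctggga
Ift57, chr16:49699199-49699228, plus strand: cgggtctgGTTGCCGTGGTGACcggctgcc
Ahi1, chr10:20952560-20952589, plus strand: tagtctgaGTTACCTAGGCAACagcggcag
Nphp4, chr4:152477903-152477932, plus strand: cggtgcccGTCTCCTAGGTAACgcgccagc
Mks1, chr11:87853183-87853212, plus strand: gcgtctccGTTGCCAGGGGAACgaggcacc
Among these 7 genes, Bbs7 and Bbs4 rose from P7 to P14, Mks1 fell, and the other 4 did not pass the test of age given below. A match of letters describes these windows and says nothing of binding.

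The members' promoters also differ in CpG dinucleotides. In 27 of the 31 members with a window the CpG count reached at least 0.6 of that expected from the base composition, as it did in 76.6% of the 9322 genes. The 4 below that value were Tulp1, Pcdh15, Cdh23 and Bbs4. The stretch upstream of Tulp1, the member with the highest level, is set beside that of Bbs7, with CpG in capitals and cut where the first annotated exon begins.
Tulp1, chr17:28365223-28365466, minus strand: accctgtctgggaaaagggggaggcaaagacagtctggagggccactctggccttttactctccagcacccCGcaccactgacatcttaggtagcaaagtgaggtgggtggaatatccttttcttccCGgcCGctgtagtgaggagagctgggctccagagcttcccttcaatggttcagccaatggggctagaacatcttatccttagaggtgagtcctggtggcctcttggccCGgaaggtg
Bbs7, chr3:36613493-36613639, minus strand: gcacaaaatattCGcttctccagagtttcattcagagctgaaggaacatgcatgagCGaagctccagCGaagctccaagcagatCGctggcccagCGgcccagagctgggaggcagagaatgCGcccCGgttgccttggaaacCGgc
The Tulp1 stretch holds 4 CpG in 244 bases and the Bbs7 stretch 8 in 147 bases.

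The members spanned a wide range of levels in every library. Tulp1 was the highest, at 253 (control) and 238 FPKM (KO) at P7 and at 459 and 548 FPKM at P14. Cdh23 was the lowest in each library, between 0.0444 and 0.268 FPKM, and Kif17 was next, between 0.684 and 1.14 FPKM. At 1 FPKM or more stood 32 members at P7 and 33 at P14 in either genotype. The median member was at 10.4 (control) and 10.1 FPKM (KO) at P7, and at 15.4 and 13.6 FPKM at P14. All genes at 1 FPKM or more, without small RNAs and short loci, had a median of 11.4 FPKM in both P7 libraries and of 10.02 (control) and 10.12 FPKM (KO) at P14.

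**Figure D1:**
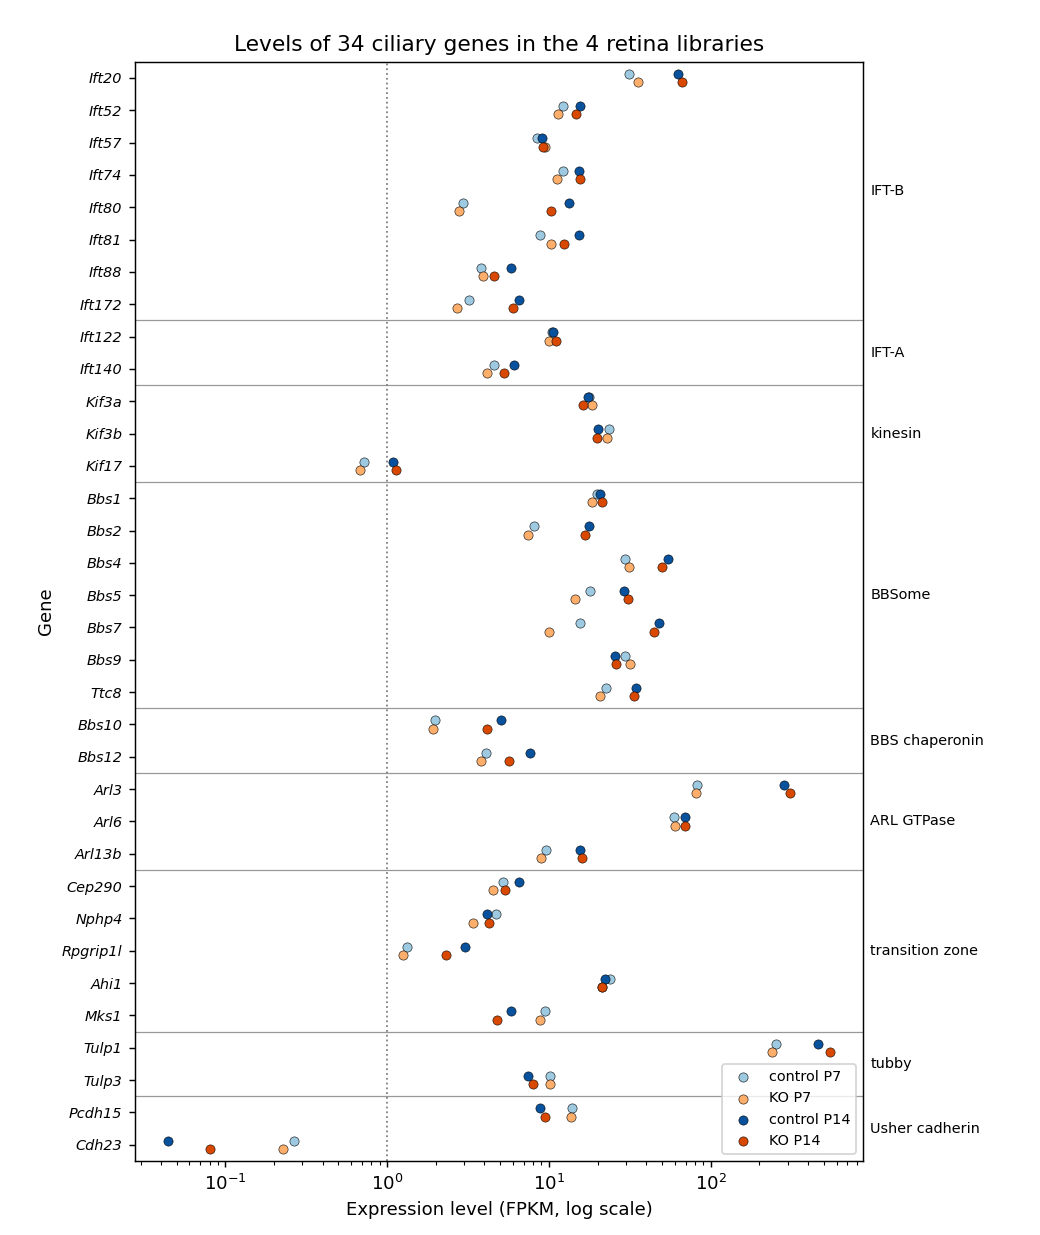
FPKM on a log axis for the 34 members, grouped by role, with 1 point per library (control and KO, P7 and P14); the dotted line marks 1 FPKM. The points of an age lie close together for most genes, while the P14 points of Arl3, Ift80, Bbs7 and Bbs2 lie to the right of their P7 points and those of Mks1, Tulp3, Pcdh15 and Cdh23 to the left.

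The libraries matched their labels where this could be checked. Fezf2 was at 8.32 (control) and 0.592 FPKM (KO) at P7, and at 4.02 and 0.126 FPKM at P14. As markers of the tissue, all 16 listed rod genes stood at 1 FPKM or more in each of the 4 libraries. The files hold no read counts, and the widths of the bounds put the depth at 95.9% (KO, P7), 80.1% (control, P14) and 105% (KO, P14) of that of the control P7 library. The bounds of the members had a median half-width of 8.36% to 10.5% of their midpoint, depending on the library, from 1.66% to 2.56% for Tulp1 up to 57.9% for Cdh23 in the control P14 library. Between 4 and 7 members per library stood above their own upper bound, Ift20, Arl3, Arl6 and Tulp1 in all 4, so bounds were compared only with bounds. Genes of lens and blood differed between the libraries. Summed over the list, lens genes were at 3.36 (control) and 11.4 FPKM (KO) at P7 and at 11.1 and 3.15 FPKM at P14, and erythroid genes were at 291 and 339 FPKM at P7 and at 1180 and 356 FPKM at P14.

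From P7 to P14 most transport and BBSome members were higher, and the tubby-like genes Tulp1 and Tulp3 went opposite ways. Both Usher cadherin genes were lower, and the kinesin genes Kif3a and Kif3b changed little. A difference whose 2 libraries have bounds that do not overlap is called beyond counting error. In the control retina 21 of 34 members were higher at P14 beyond counting error and 6 lower. In the KO retina 22 were higher and 7 lower. The same holds for 27.6% and 37.7% of 13112 genes in the control and for 29.0% and 39.4% of 13044 genes in the KO retina, the genes at 1 FPKM or more in either library. Of the members called lower, Cdh23 stood below that floor. With 1.5-fold required as well, 14 members were higher and 2 lower in the control, against 16.0% and 20.5% of genes, and 12 were higher and 1 lower in the KO retina, against 17.0% and 21.4%. The median difference over the 33 members at the floor, as log2(FPKM + 1), was 0.35 in the control and 0.34 in the KO retina, against -0.08 and -0.09 over those genes.

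In both genotypes 19 members were higher beyond counting error and 6 were lower, against 23.9% and 34.2% of 12910 genes. None of the 34 went beyond it in opposite directions, and 28 of the 12910 genes did. In addition a single limma model with a genotype and an age term was fitted to the 4 libraries, with p-values adjusted over 12934 genes. Its standard errors and p-values rest on the disagreement between the genotypes' age differences, moderated over genes, and not on spread between animals. In what follows, rose and fell refer to an adjusted p below 0.05 for age in this fit. Of the 33 members fitted 21 rose, 5 fell and 7 did not pass, while 30.7% of all genes fitted rose and 40.6% fell. Cdh23 was too low to be fitted. Kif17, counted among the 21, entered the fit only through its P14 libraries, so it had to be higher there. With no floor on expression, so that many near-silent genes entered the fit, 4 members passed, Arl3, Bbs2, Ift20 and Ttc8, and all 4 rose.

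The age differences were alike in the genotypes. They had the same sign in 32 of 34 members, Ift57 and Nphp4 being the exceptions. The control and the KO difference, which share no library, correlated across the 34 genes (Pearson 0.94, Spearman 0.93), and genes are not independent replicates. The median distance between the 2 differences was 0.13, and the largest was 0.48, for Bbs7.

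**Figure D2:**
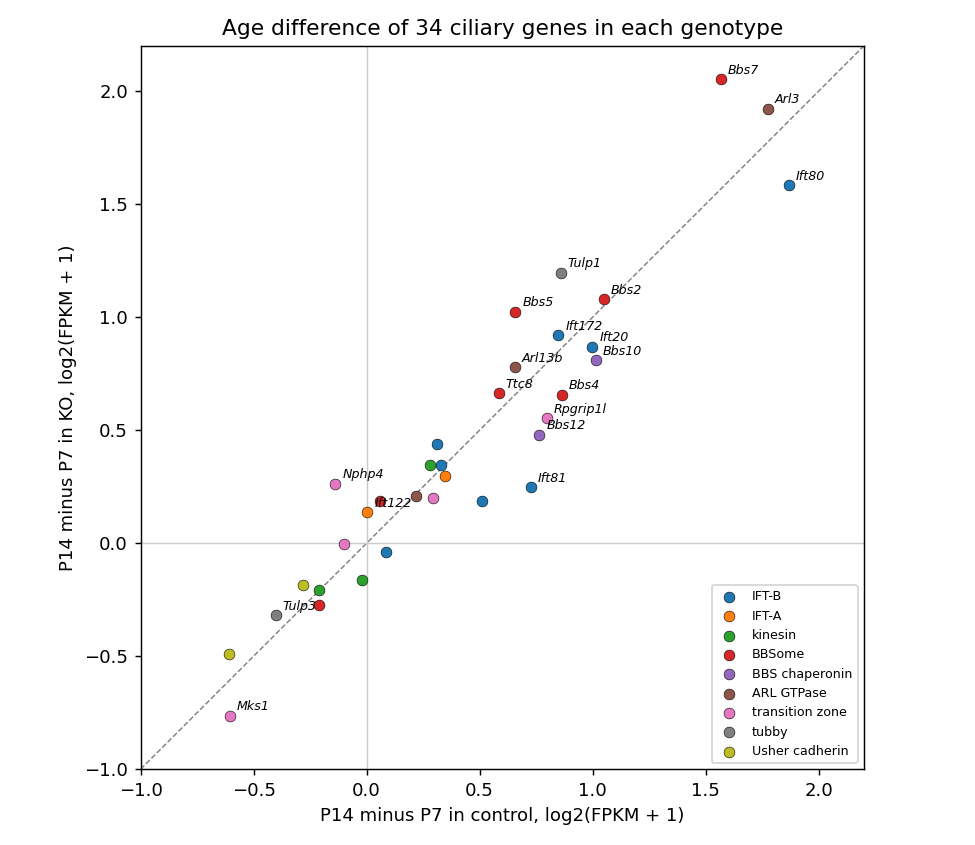
P14 minus P7 in the control (horizontal) and in the KO retina (vertical) as log2(FPKM + 1), with 1 point per member coloured by role; the dashed line marks equal differences. Bbs7, Arl3 and Ift80 lie highest on the KO axis, from 1.58 to 2.05, and Mks1 lies lowest on the KO axis, at -0.76.

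Most IFT-B members were higher at P14. Ift80 was at 2.93 (control) and 2.77 FPKM (KO) at P7 and at 13.3 and 10.3 FPKM at P14. All P14 values lay above all P7 values, 4.56 times as high in the control and 3.72 times in the KO retina. Its product belongs to the peripheral part of the complex. In the limma fit its log2 difference was 1.73 with a standard error of 0.11 (adjusted p = 6.96e-08).

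Ift20, the subunit that also sits at the Golgi and takes part in sending membrane proteins to the cilium, was at 31.1 and 35.8 FPKM at P7 and at 63.3 and 66.2 FPKM at P14 (control and KO). Ift172, one of the largest train subunits, was at 3.21 and 2.72 FPKM at P7 and at 6.57 and 6.04 FPKM at P14. Both genes about doubled in each genotype, by a factor of 1.85 to 2.22, and rose in the limma fit (adjusted p = 5.84e-07 and 1.42e-05).

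Differences of the other 5 subunits were smaller. Ift74 and Ift81, whose products bind tubulin together, rose by a log2 difference of 0.38 and 0.49, Ift52 by 0.34 and Ift88, the subunit lost in the Oak Ridge polycystic kidney mouse, by 0.35. For Ift81 and Ift88 the KO difference lay within counting error, with Ift81 at 10.3 FPKM at P7 and 12.5 FPKM at P14 and Ift88 at 3.94 and 4.61 FPKM. Ift57 stood between 8.48 and 9.42 FPKM in the 4 libraries and did not pass (limma adjusted p = 0.84). On a TPM scale the bounds of Ift52 overlapped in both genotypes and those of Ift74 in the control. In all, 7 of the 8 IFT-B members rose, against 30.7% of all genes fitted. Of further IFT-B genes outside the members Hspb11, Rabl5 and Cluap1 rose and Ttc30a1 fell. Ift27, Ift46, Ttc26, Traf3ip1, Ttc30a2 and Ttc30b did not pass. Levels of the 8 member subunits were unequal throughout: the highest, Ift20, was 10.6 to 14.4 times the lowest.

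Of the IFT-A members, Ift140 rose and Ift122 did not pass. Ift140 was at 4.58 and 4.12 FPKM at P7 and at 6.09 and 5.30 FPKM at P14, with a log2 difference of 0.32 (limma adjusted p = 0.017). Ift122 stood between 9.98 and 11.1 FPKM in all 4 libraries, and its bounds overlapped in both age comparisons. The locus of Ift140 overlaps that of Tmem204, at 1.16 to 2.40 FPKM. The protocol given in the labels marks no strand, so reads of any sequence they share could not be told apart. Whether their exons overlap was not examined.

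Kif3a and Kif3b, the motor genes of the heterotrimeric kinesin that drives the trains outward, stayed near their P7 level. Kifap3, the accessory subunit gene of that kinesin and not a member, was higher at P14 beyond counting error in both genotypes. Its level went from 37.1 (control) and 36.5 FPKM (KO) to 46.0 and 41.8 FPKM. Kif3a was at 17.8 and 18.4 FPKM at P7 and at 17.5 and 16.3 FPKM at P14 (control and KO), and did not pass (limma adjusted p = 0.37). In the KO retina its P14 level was 0.887 of that at P7, lower beyond counting error, and in the control its bounds overlapped. Kif3b was at 23.4 and 23.0 FPKM at P7 and at 20.1 and 19.7 FPKM at P14. Its P14 values were 0.859 of the P7 values in each genotype, a small fall (log2 difference -0.21, limma adjusted p = 0.042). The fall of Kif3b did not pass with median scaling (limma adjusted p = 0.31), without a variance trend (0.065) or with small RNAs kept (0.053). Kif17, the homodimeric kinesin of some sensory cilia, was low, at 0.723 and 0.684 FPKM at P7 and at 1.09 and 1.14 FPKM at P14. Its difference lay within counting error in the control and beyond it in the KO retina. It passed in the limma fit (adjusted p = 0.027), but reached the 1 FPKM that the fit asks for only at P14, so this call is no support for a rise.

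BBSome genes were for the most part higher at P14. Bbs7 was at 15.6 (control) and 10.1 FPKM (KO) at P7 and at 48.1 and 44.9 FPKM at P14. The P14 libraries stood well above the P7 libraries, 3.09-fold in the control and 4.46-fold in the KO retina, and at P7 the KO library stood below the control. The log2 difference of Bbs7 with age was 1.81 with a standard error of 0.11 (limma adjusted p = 3.84e-08). Bbs7 spans bases 36472065 to 36512311 of chromosome 3 in mm9, the build of the files.

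Bbs2, which with Bbs7 and Bbs9 forms the early core of the complex, was at 8.10 and 7.40 FPKM at P7 and at 17.8 and 16.8 FPKM at P14. Bbs4 was at 29.5 and 31.4 FPKM at P7 and at 54.5 and 50.1 FPKM at P14. Bbs5, a subunit that binds phosphoinositides, was at 18.1 and 14.6 FPKM at P7 and at 29.1 and 30.7 FPKM at P14. Ttc8, also called Bbs8, went from 22.6 and 20.8 FPKM to 34.4 and 33.6 FPKM. All 4 genes rose, with log2 differences from 0.62 to 1.06, and for each of them both P14 values lay above both P7 values.

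Bbs1 and Bbs9 did not share this course. Bbs1, the subunit that Arl6 binds, was at 19.8 and 18.5 FPKM at P7 and at 20.7 and 21.2 FPKM at P14 and did not pass (limma adjusted p = 0.22), but passed with median scaling (0.034). Bbs9 was at 29.7 and 31.7 FPKM at P7 and at 25.5 and 26.02 FPKM at P14, and fell (log2 difference -0.24, limma adjusted p = 0.018). The fall of Bbs9 did not pass with median scaling (limma adjusted p = 0.17). Bbs2, the lowest of the 7 in all libraries, and the highest subunit were 3.67 and 4.28 times apart at P7 and 3.06 and 2.99 times at P14. The highest was Bbs9 at P7 and Bbs4 at P14.

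Both chaperonin-like genes, whose products help to assemble the BBSome, were higher at P14. Bbs10 was at 1.99 and 1.94 FPKM at P7 and at 5.04 and 4.15 FPKM at P14. Bbs12 was at 4.10 and 3.81 FPKM at P7 and at 7.66 and 5.71 FPKM at P14. They rose by a log2 difference of 0.91 and 0.62 (limma adjusted p = 1.72e-05 and 0.000359).

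All ARL GTPase members rose. Arl3, which releases lipid-anchored proteins from their carriers inside the photoreceptor cilium, was at 82.9 (control) and 81.2 FPKM (KO) at P7 and at 286 and 310 FPKM at P14. These P14 levels were 3.45 and 3.82 times those at P7, and only Tulp1 was higher among the members. Its log2 difference was 1.85 with a standard error of 0.07 (limma adjusted p = 1e-09). Arl13b, the Joubert syndrome gene whose product activates Arl3, was at 9.60 and 8.98 FPKM at P7 and at 15.7 and 16.1 FPKM at P14. Arl6, which recruits the BBSome to membranes, was already at 59.4 and 60.0 FPKM at P7 and was at 69.2 and 69.5 FPKM at P14. The rise of Arl6 was the smallest of the 21 (log2 difference 0.21, limma adjusted p = 0.020) and did not pass without a variance trend (0.060). On a TPM scale its bounds overlapped in both genotypes.

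Transition zone genes went different ways. Rpgrip1l, a Joubert and Meckel syndrome gene, was at 1.33 and 1.26 FPKM at P7 and at 3.05 and 2.31 FPKM at P14, and rose (log2 difference 0.67, limma adjusted p = 0.000253). Mks1, another Meckel syndrome gene, was at 9.45 and 8.82 FPKM at P7 and at 5.87 and 4.78 FPKM at P14, and fell (-0.68, limma adjusted p = 8.83e-05). The P14 values of Mks1 lay below both P7 values and those of Rpgrip1l above them.

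Cep290, a gene of Leber congenital amaurosis and Joubert syndrome, was at 5.18 and 4.54 FPKM at P7 and at 6.58 and 5.37 FPKM at P14. Its P14 level was higher beyond counting error in both genotypes, but in the limma fit its adjusted p was 0.053, against 0.012 with median scaling and 0.037 without a variance trend. On a TPM scale its KO bounds overlapped. Its locus overlaps 4930430F08Rik, which was at 2.73 to 3.35 FPKM at P7 and at 6.93 to 7.55 FPKM at P14. Ahi1 stood between 21.3 and 23.9 FPKM and Nphp4 between 3.41 and 4.69 FPKM in the 4 libraries, and neither passed for age.

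The tubby-like genes went in opposite directions. Tulp1, a photoreceptor gene needed for the traffic of proteins to the outer segment, rose by a log2 difference of 1.03 (standard error 0.08, limma adjusted p = 3.43e-07). Tulp3, which brings receptors into primary cilia of many cell types together with IFT-A, was at 10.2 and 10.1 FPKM at P7 and at 7.45 and 7.94 FPKM at P14. It fell (-0.36, limma adjusted p = 0.0061), and with median scaling its KO bounds overlapped. Tulp1 was 24.9 and 23.5 times as high as Tulp3 at P7 and 61.7 and 69.0 times at P14.

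Both Usher cadherin genes, whose products form the tip links of hair cells and lie at the calyceal processes of photoreceptors, were lower at P14. Pcdh15 was at 14.0 and 13.7 FPKM at P7 and at 8.82 and 9.49 FPKM at P14, and fell (log2 difference -0.55, limma adjusted p = 0.000257). Cdh23 was at 0.268 and 0.228 FPKM at P7 and at 0.0444 and 0.0805 FPKM at P14, lower beyond counting error in both genotypes but under 1 FPKM throughout. Its locus overlaps 4632428N05Rik, which was at 0.929 to 1.40 FPKM, above Cdh23 itself. Reads of any exon sequence shared by them could not be told apart, and whether exons overlap was not examined.

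**Figure D3:**
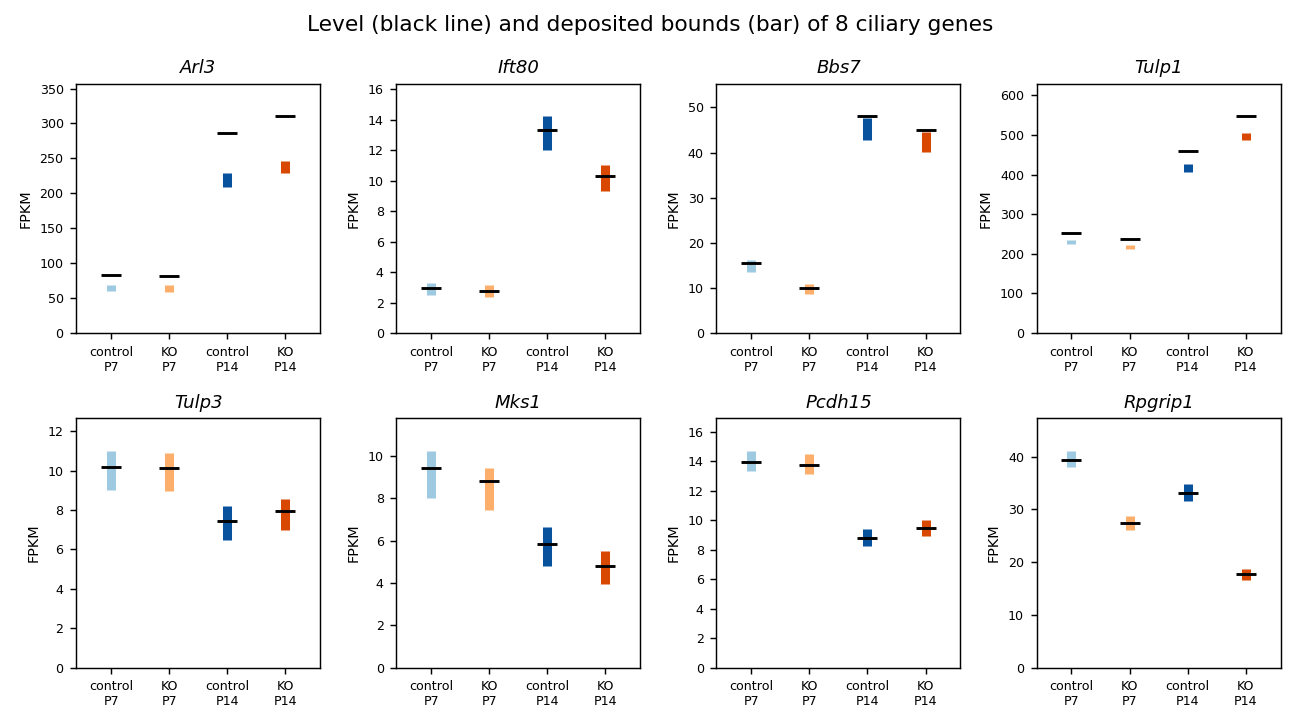
FPKM in each library (black line) with its deposited bounds (bar), on axes that start at 0, for 7 members and for Rpgrip1. Levels of Arl3 and Tulp1 lie above their own bars, which is why bars were compared only with bars; within each genotype the P14 bar lies above the P7 bar for Arl3, Ift80, Bbs7 and Tulp1 and below it for Tulp3, Mks1, Pcdh15 and Rpgrip1.

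Markers of the cells that carry outer segments moved with age as well. In a list of rod genes 15 of 16 were higher at P14 beyond counting error in each genotype, against 27.6% (control) and 29.0% (KO) of all genes. The summed level of the rod list went from 9314 to 29590 FPKM in the control and from 9542 to 31932 FPKM in the KO retina. In a list of progenitor genes 11 of 12 were lower in each genotype. Of the 8 at 1 FPKM or more 7 were lower, against 37.7% and 39.4% of all genes. Among these 7, Top2a in both genotypes and Sfrp2 in the control reached 1 FPKM only at P7, so they had to be lower at P14. The progenitor sum went from 451 to 205 FPKM and from 440 to 183 FPKM. No rod gene was at 0, and Mki67 was at 0 in the KO P14 library. In these bulk samples fewer cells of a type and less RNA per cell cannot be told apart, and the part of either list in the members' age differences was not tested. Genes of motile cilia were low: of 16 listed, 12 were found and summed to 9.07 to 15.2 FPKM, and their regulator Foxj1 was at 3.12 to 5.85 FPKM.

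Further ciliary genes were also examined. Of 67 listed, 65 were found and 63 were fitted with limma. Among these 21 rose, 15 fell and 27 did not pass, against 30.7% and 40.6% of all genes fitted that rose and fell. The median log2 difference of the 63 was -0.002, against 0.35 for the members fitted and -0.08 for all genes. Ush1g and Invs, counted among the 21, entered the fit only through their P14 libraries, so they had to be higher there. These calls are no support for a rise. Of the 65 genes 14 were higher and 11 lower beyond counting error in both genotypes. Mkks, the third chaperonin-like BBS gene, was at 5.65 and 4.60 FPKM at P7 and at 15.2 and 14.8 FPKM at P14. Fam161a, a ciliary retinitis pigmentosa gene, went from 23.9 and 22.2 FPKM to 57.5 and 50.6 FPKM.

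The carriers of lipid-anchored cargo, which Arl3 unloads, were also among the higher genes. Pde6d was at 64.6 and 58.3 FPKM at P7 and at 129 and 133 FPKM at P14, and Unc119, the photoreceptor carrier of transducin, at 822 and 842 FPKM and at 1630 and 1848 FPKM. Its paralog Unc119b went the other way, from 25.7 and 31.2 FPKM to 12.2 and 13.8 FPKM. Myo7a (7.28 and 7.06 to 3.997 and 5.10 FPKM), Tub (68.5 and 67.8 to 48.7 and 44.0 FPKM) and Rpgr (5.71 and 5.15 to 3.41 and 3.40 FPKM) were the other genes with the largest differences downward.

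Between the genotypes the members differed little. At P7, 26 of 34 were lower in the KO retina and 8 higher. Of the 32 at 1 FPKM or more 24 were lower, with a median log2 difference of -0.08, and of all 12665 such genes 6045 were lower, with a median of 0.007. Beyond counting error 4 were lower and 0 higher, against 6.10% and 7.34% of 12665 genes. At P14, 18 were lower and 16 higher. Of the 33 at 1 FPKM or more 18 were lower, with a median of -0.03, and of all 12804 such genes 6299 were lower, with a median of 0.003. Beyond counting error 5 were lower and 2 higher, against 8.24% and 7.45% of 12804 genes. No member was lower beyond counting error at both ages, against 1.42% of 12223 genes. None of these differences reached 1.5-fold on the log2(FPKM + 1) scale, which 0.797% of all genes did with bounds apart at P7 and 1.16% at P14. Bbs7 at P7 lay just under it, at -0.58, and past it with a pseudocount of 0.1 FPKM (-0.62) or on a TPM scale (-0.63), and its plain FPKM ratio was 0.648. In the limma fit 0 of 33 members passed for genotype, with 1 at an unadjusted p below 0.05. In the same fit 31 of 12934 genes passed, all lower, or 0.240%.

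**Figure D4:**
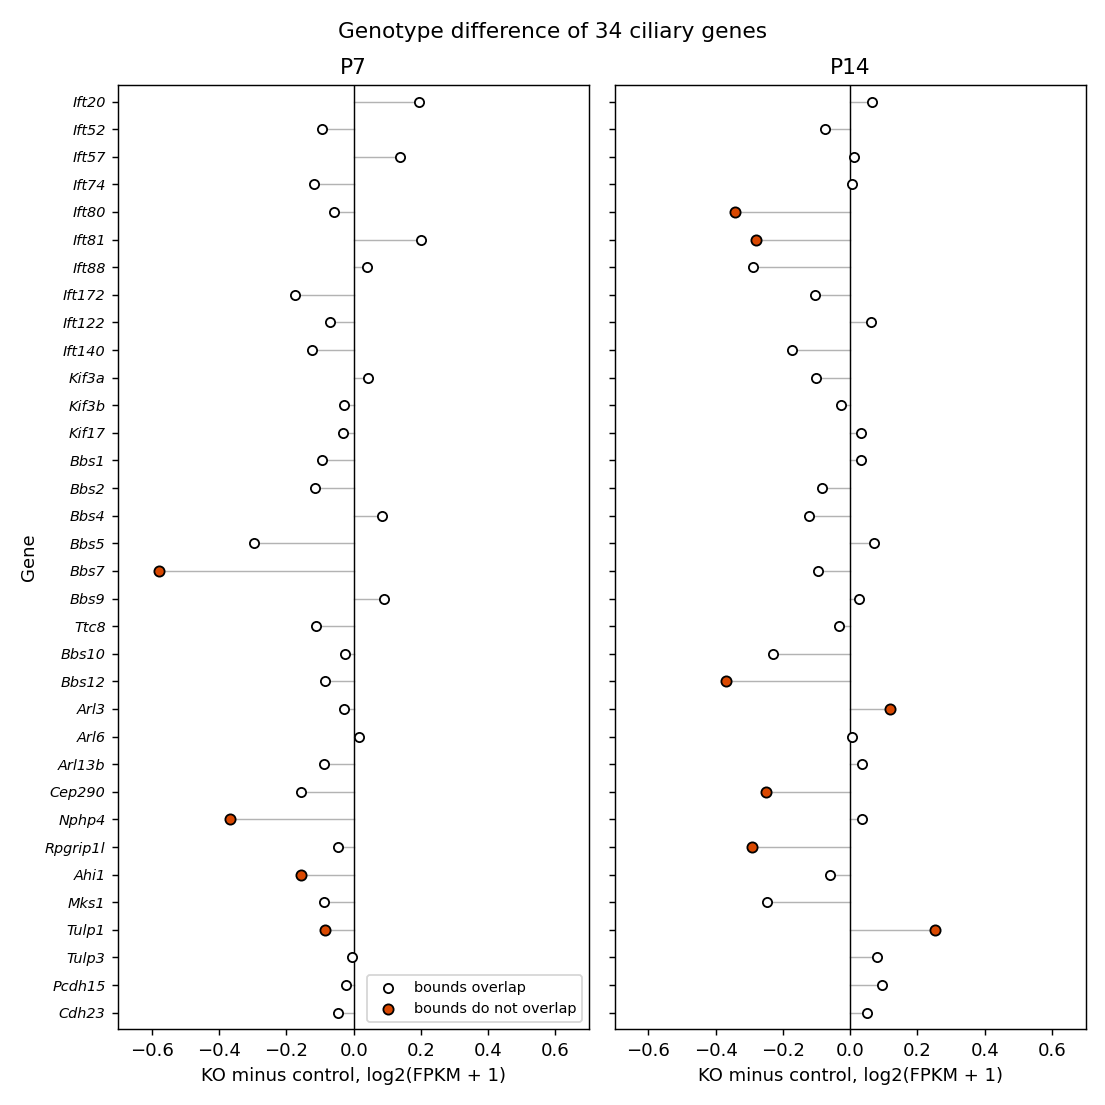
KO minus control as log2(FPKM + 1) for each of the 34 members at P7 (left) and P14 (right); filled points are genes whose bounds do not overlap. The filled points are 4 at P7, all left of 0, and 7 at P14, of which Tulp1 and Arl3 lie to the right.

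Bbs7 had the largest difference at P7. The KO library stood at 10.1 FPKM (bounds 8.65 to 10.8) and the control at 15.6 FPKM (13.6 to 16.3), a log2 difference of -0.58. At P14 its bounds overlapped, 40.2 to 44.6 in the KO and 42.8 to 47.7 in the control library. Over both ages its difference was -0.34 with a standard error of 0.11 (adjusted p = 0.36 in the limma fit), and it was the single member under an unadjusted p of 0.05.

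Nphp4, a nephronophthisis gene, was at 3.41 FPKM (KO) against 4.69 FPKM (control) at P7 (log2 difference -0.37). Ahi1, a Joubert syndrome gene, was at 21.3 against 23.9 FPKM at that age (-0.16). All 5 transition zone members were lower in the KO library at P7, where 6045 of 12665 genes were lower. Beyond counting error 2 of the 5 were lower, against 6.10% of those genes. Transition zone genes outside the members went both ways at P7. At P14 Nphp4 was at 4.30 against 4.17 FPKM and Ahi1 at 21.3 against 22.2 FPKM, with bounds that overlapped. Neither gene differed beyond counting error at both ages.

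At P14 the genes lower in the KO library beyond counting error were Ift80 (10.3 against 13.3 FPKM, log2 difference -0.34), Ift81 (12.5 against 15.3 FPKM, -0.28), Bbs12 (5.71 against 7.66 FPKM, -0.37), Cep290 (5.37 against 6.58 FPKM, -0.25) and Rpgrip1l (2.31 against 3.05 FPKM, -0.29). At P7 each of these 5 had overlapping bounds, and Ift81 was then 10.3 against 8.87 FPKM, the other way. The bounds of Ift81 overlapped at P14 too with median scaling.

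Tulp1 and Arl3, the members with the highest levels, were higher in the KO library at P14. Tulp1 was at 548 FPKM (bounds 488 to 504) against 459 FPKM (408 to 426), a log2 difference of 0.25, and at P7 at 238 FPKM (211 to 222) against 253 FPKM (224 to 235), a difference of -0.08. It was the single member beyond counting error at both ages, in opposite directions, as were 183 of 12223 genes. Arl3 was at 310 FPKM (229 to 247) against 286 FPKM (210 to 229) at P14, a difference of 0.12 that lay within counting error on a TPM scale.

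Rod genes stood higher in the KO library at P14 as well, with sums of 31932 (KO) and 29590 FPKM (control). Beyond counting error 12 of 16 were higher and 2 lower, against 7.45% and 8.24% of 12804 genes. At P7 4 were higher and 4 lower, against 7.34% and 6.10% of 12665 genes, with sums of 9542 and 9314 FPKM. Of the pigment epithelium genes 8 of 12 were lower beyond counting error in the P14 KO retina, against 8.24% of 12804 genes. Their sums were 466 (KO) and 526 FPKM (control), and none of the 12 was at 0. Within these sums Rlbp1, also listed as a Mueller glia gene, was at 303 and 301 FPKM, with bounds that overlapped. At P7 3 were higher and 0 lower beyond it, with sums of 313 and 288 FPKM. The part of these lists in the members' genotype differences was not tested.

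Among the other ciliary genes Rpgrip1 stood below the control at each age in the KO retina. This gene encodes the protein that anchors RPGR in the connecting cilium, lies on chromosome 14 like Fezf2, and was lower beyond counting error at both ages. Of the 65 genes 1 was so, against 1.42% of 12223 genes. It was at 27.4 FPKM in the KO (bounds 26.1 to 28.8) and 39.3 FPKM in the control library (38.1 to 41.1) at P7. At P14 it was at 17.7 FPKM (16.7 to 18.7) against 33.1 FPKM (31.7 to 34.8). The ratio of KO to control was 0.697 at P7 and 0.535 at P14, and the log2 difference over both ages was -0.69 with a standard error of 0.10 (limma adjusted p = 0.012). Its paralog Rpgrip1l, described above, differed beyond counting error at P14 and not at P7. In mm9 Rpgrip1 starts at base 52730578 and Fezf2 at base 13174406 of chromosome 14. Ift88 and Rp1l1 lie on that chromosome too, from bases 58042908 and 64611268. Between the genotypes the bounds of Ift88 overlapped at both ages, and Rp1l1 was higher beyond counting error in the KO library at P14 only. The part of position in the difference of Rpgrip1 was not tested.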

How the data were processed

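The deposited values are FPKM per gene with a lower and an upper bound, which the authors made on build mm9 using Cufflinks 2.1.1, TopHat2 2.0.8b and CASAVA 1.8.2, per the submitters' processing notes. The sources used here give neither annotation nor options. Reads were 36 bases long and the protocol names no strand marking, per the labels' protocols. Rows of a symbol were summed (251 symbols), 16 symbols with a failed value were left out, and coordinates were counted from 1. Differences are on the log2(FPKM + 1) scale, where changes of low genes come out too small, and ratios are of FPKM. Background genes had 1 FPKM or more in either library and left out 740 small RNAs and loci under 300 bases. The additive fit used limma 3.58.1 (R 4.3.3) with a variance trend, p-values adjusted by Benjamini-Hochberg, and genes that reached 1 FPKM in 2 or more libraries. It has 1 residual degree of freedom and 10.9 prior degrees of freedom, and was tested on simulated data, where more of its calls were false than the threshold of 0.05 allows, so calls close to it are weak. Promoter windows are from RefSeq and exons from GENCODE, both on GRCm38, and no coordinates were converted between builds. With 1 library per group there is no replicate, and the spread between animals is unknown. The members and gene lists were chosen with earlier results of these data known. All 34 members were to be described, and of other lists the genes with the largest differences shared by both genotypes or ages. Mki67, Foxj1, Kifap3, Ush1g, Invs, Top2a, Sfrp2, Rp1l1 and the further IFT-B genes were named after their values were seen. The result for 1 gene is not reported here.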

Additional observations from a re-analysis of the deposited data

Results flagged for a closer look

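Tulp1 differed between the genotypes in opposite directions at the 2 ages. The KO library stood below the control at P7, with a log2 difference of -0.08, and above it at P14, with 0.25, and the bounds did not overlap at either age. The difference between the ages was not tested, since each group holds 1 library.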

How the results depend on the processing

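No paired analysis was possible because the labels give no replicate numbers and each group holds 1 library, although the limma fit compares the genotypes within each age. None of the 1228 recomputed member values turned its direction where a difference was called; 79 no longer passed their rule and 9 newly passed. Requiring 1.5-fold as well as bounds apart left 0 members lower at P7, 0 higher and 0 lower at P14 between the genotypes, 2 lower with age in the control, and 12 higher and 1 lower with age in the KO retina. On a TPM scale 1 member was higher in the KO library at P14. Median scaling, whose log2 factor was -0.12 in both P14 libraries relative to the control P7 library, moved the median age difference of all genes in the control from -0.08 to 0.02 and left 3 members lower with age in the control, 3 in the KO retina and 3 in the limma fit. A pseudocount of 0.1 FPKM raised the members' median age difference in the control to 0.53. With no floor the limma fit called 4 members higher and 0 lower with age among 21802 genes, with 0.779 prior degrees of freedom. Bounds recentred on the level, a choice made after seeing the data, changed none of these counts or medians by over 1.5 times. Counting error limits what can be said of Kif17 and Cdh23.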
